A study of Mus musculus with 12 samples.

Results

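Cholesterol and fatty acid synthesis were followed through 33 genes in cortex of embryonic day 14 mice, dissected into rostral and caudal pieces, with and without the transcription factor AP2gamma. The genes were chosen by name, as enzymes of sterol synthesis (18 genes), enzymes of fatty acid synthesis (9 genes) and regulators of both pathways (6 genes), and they are not every gene of these pathways. Of the 33 genes, 32 had a probe set (a group of array probes read as 1 value) annotated to that gene alone, out of 18194 genes named on the array. All 32 passed the filter on dim probe sets, and so did 67 of their 74 probe sets. Acat2, the cytosolic thiolase that starts sterol synthesis, had no such probe set in the annotation used and was not analysed here. Values are log2 expression, so a difference of 1 is a doubling, and levels are compared only within a probe set.

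The 12 arrays formed 4 groups of 3: caudal cortex of AP2gamma knock-out mice (KO), caudal cortex of wild type mice (WT), rostral cortex of KO mice and rostral cortex of WT mice. Every array carried its own animal number, with 1, 2 and 13 in caudal KO, 4, 6 and 14 in caudal WT, 7, 8 and 15 in rostral KO, and 10, 12 and 16 in rostral WT. The labels do not name the strain, the deleted allele, or whether the gene was removed in the whole embryo or in the cortex alone. The pieces are bulk tissue, in which fewer cells of a type and less RNA per cell cannot be told apart.

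Cholesterol is made from acetyl-CoA through mevalonate, farnesyl diphosphate, squalene and lanosterol, and the embryonic brain makes most of its own, since lipoproteins do not cross the blood-brain barrier. Fatty acids are made from the same acetyl-CoA by carboxylation, chain synthesis, elongation and desaturation, and supply the membranes of dividing progenitors and growing neurites. Both pathways are controlled by the sterol regulatory element-binding proteins (SREBP), membrane-bound transcription factors that the escort protein Scap carries to the Golgi for cleavage and that Insig proteins hold back when sterols are plentiful.

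The arrays were alike in signal, with medians between 5.21 and 5.22 and upper quartiles between 7.54 and 7.56. Tfap2c, which encodes AP2gamma, read 7.71, 7.86 and 7.44 in caudal KO against 9.19, 8.84 and 8.64 in caudal WT, and 8.11, 8.63 and 8.09 on rostral KO arrays, against 8.54 to 9.06 on the 3 rostral WT arrays. The caudal groups did not overlap, while rostral KO 8 lay above rostral WT 16. Averaged over both regions its log2 level fell by 0.91 in KO with an SE of 0.14 (limma adjusted p = 0.038). The place of its probes relative to the deletion was not examined. Xist, transcribed from the inactive X chromosome, was high on the arrays of WT animals 6 (11.32) and 12 (11.89) and at or below 5.48 on the other 10. Eif2s3y, a gene of the Y chromosome, read 0.20 and 2.60 on those arrays and 8.49 or more on the other 10. By these genes animals 6 and 12 read as female and every KO animal as male, so sex was not balanced between KO and WT. The mean level of 7 dorsal cortex markers ran from 9.81 to 10.39 over the 12 arrays. Of the 7, Eomes, a marker of basal progenitors, fell by 0.56 in KO averaged over regions (limma adjusted p = 0.038), and its part in the KO differences given here was not tested. When numbers that differ by 6 (1 and 7, 2 and 8, 4 and 10, 6 and 12) or by 2 (13 and 15, 14 and 16) were put together, the deviations of the caudal array from its group mean correlated with those of its rostral partner at r = 0.08 to 0.37 across genes. Each caudal array correlated more with its partner than with either other rostral array of its genotype. The labels do not say that partners are pieces of 1 embryo, so fits that treat these 6 pairs as a random block are given where they alter a call. In that fit neither Tfap2c (limma adjusted p = 0.079) nor Eomes (0.147) passed for KO averaged over regions, with the same differences. If they are pieces of 1 embryo, the averaged KO comparison rests on 6 animals, not 12.

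Sequence upstream of the start site was available for 26 of the 33 genes in the RefSeq promoter table (GRCm38.p6). The 7 without an entry, Fdps, Fdft1, Sqle, Stard4, Scd1, Scd2 and Fads1, were not searched. The 250 bases before each annotated start were searched on both strands, counting a gene where any of its starts had a match. The core of the sterol regulatory element, TCACNCCAC, was found in 1 of the 26 genes, Hmgcs1, against 1.22% of all 27025 genes in the table. The CCAAT box, read by NF-Y, a factor that acts with SREBP, was found in 20 of the 26 genes (76.9%, against 37.5% of all genes), and in 14 of 15 sterol synthesis genes, 2 of 6 fatty acid synthesis genes and 4 of 5 regulators. The Sp1 box, GGGCGG, was found in 21 (80.8%, against 35.4%). The AP2 palindrome, GCCNNNGGC, was found in 8 genes (30.8%, against 15.4%): Hmgcs1, Mvk, Idi1, Fasn, Acly, Srebf1, Srebf2 and Scap. In Hmgcs1 and Idi1 it overlaps a CCAAT box on the opposite strand. A match describes letters in this window and is not a binding site. The background is every gene in the table, expressed in cortex or not, and was not matched for base composition. The upstream windows below are shown because Hmgcs1 held all of these motifs, Nsdhl held 2 CCAAT boxes and did not overlap between caudal and rostral WT arrays, and Acly and Srebf2, each with an AP2 palindrome, had the smallest p and the lowest difference of the averaged KO comparison. Each runs 5′ to 3′ towards the start, with the sterol element core, CCAAT boxes and AP2 palindromes in capitals.
Hmgcs1, chr13:119690101-119690350, plus strand: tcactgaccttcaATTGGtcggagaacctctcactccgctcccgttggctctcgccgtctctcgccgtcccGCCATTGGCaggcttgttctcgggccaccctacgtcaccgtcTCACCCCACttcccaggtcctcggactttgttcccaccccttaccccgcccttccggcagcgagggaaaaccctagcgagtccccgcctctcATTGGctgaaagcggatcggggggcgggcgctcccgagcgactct
Nsdhl, chrX:72918271-72918520, plus strand: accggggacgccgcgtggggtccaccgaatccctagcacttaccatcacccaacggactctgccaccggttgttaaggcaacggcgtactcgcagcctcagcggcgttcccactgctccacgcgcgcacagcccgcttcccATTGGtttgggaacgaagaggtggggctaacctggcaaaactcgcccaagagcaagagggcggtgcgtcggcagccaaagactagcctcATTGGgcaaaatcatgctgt
Acly, chr11:100528001-100528250, minus strand: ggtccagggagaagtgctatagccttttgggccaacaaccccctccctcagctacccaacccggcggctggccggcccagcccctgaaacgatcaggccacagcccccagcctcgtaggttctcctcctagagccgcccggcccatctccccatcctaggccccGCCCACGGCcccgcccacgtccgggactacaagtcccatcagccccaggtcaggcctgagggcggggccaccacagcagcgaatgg
Srebf2, chr15:82147019-82147268, plus strand: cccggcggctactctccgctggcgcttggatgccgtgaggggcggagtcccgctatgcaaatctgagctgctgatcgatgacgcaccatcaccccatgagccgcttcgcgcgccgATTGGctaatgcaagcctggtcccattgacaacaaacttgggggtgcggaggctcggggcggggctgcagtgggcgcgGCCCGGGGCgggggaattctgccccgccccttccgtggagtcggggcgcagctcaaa

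The first question was how the lipid synthesis genes differed between KO and WT, in each region and averaged over both. No member passed the threshold in any of these comparisons (limma, Benjamini-Hochberg adjusted p under 0.05 over 11785 genes). Over all genes, 0% passed in caudal cortex, 0% in rostral cortex and 0.0339% in the averaged comparison. At an unadjusted p under 0.05 there was 1 member in caudal cortex (background 4.06%), 3 in rostral cortex (6.69%) and 1 in the averaged comparison (7.53%). The averaged KO differences of the 32 genes ran from -0.23 (Srebf2) to 0.14 (Insig2). Every one of their 95% intervals lay within 0.5 of zero in this fit. With number pairs treated as a random block 31 of 32 did, and that of Srebf2 reached 0.51 in size. For single regions the intervals were wider, with 28 of 32 within 0.5 in caudal cortex and 26 in rostral cortex, and all within 1. The farthest bounds were 0.71 for Hsd17b7 in caudal cortex and 0.59 in size for Srebf2 in rostral cortex.

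**Figure D1:**
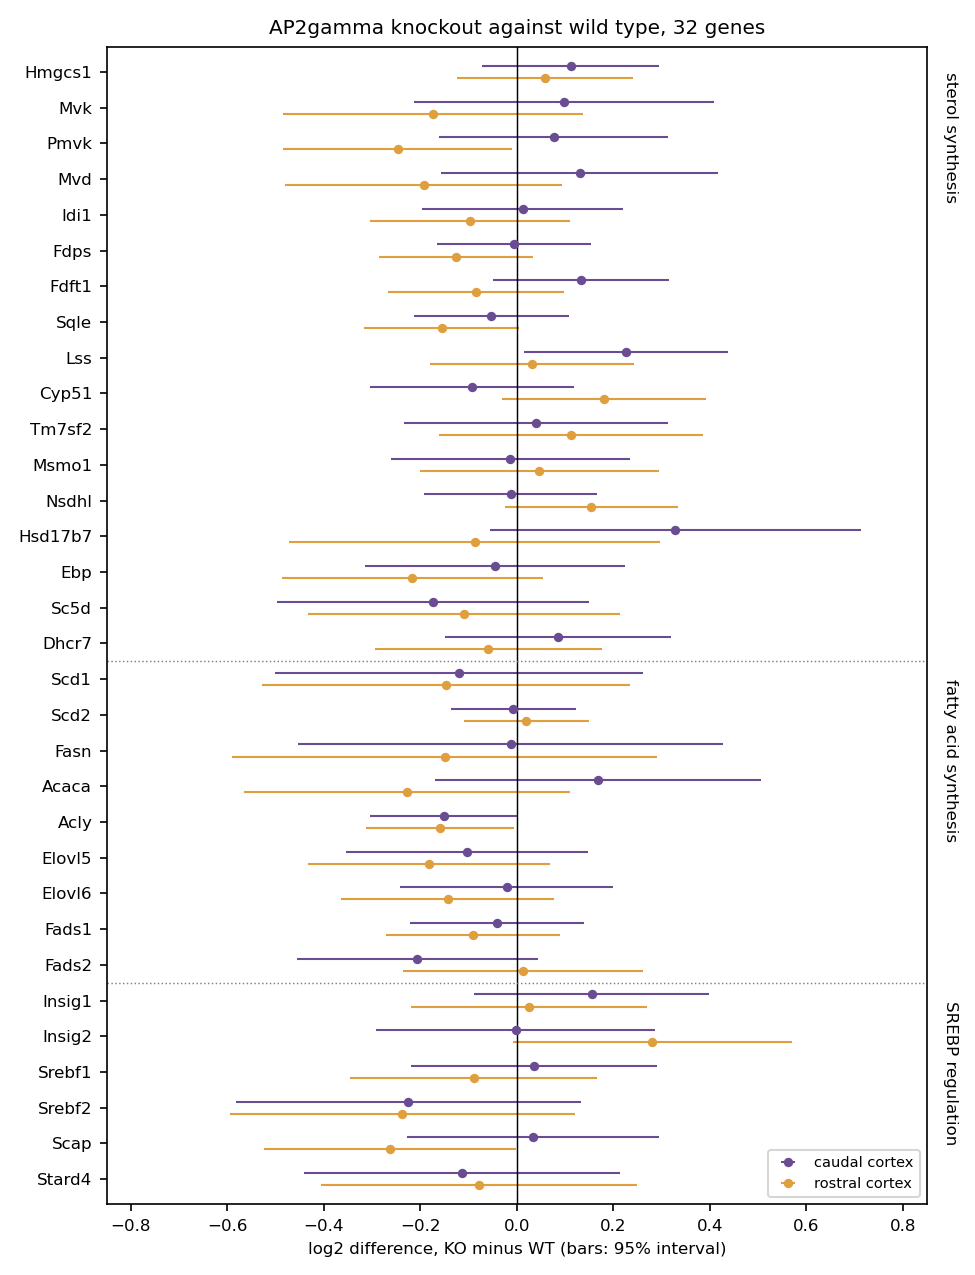
Difference between KO and WT (log2) in caudal and rostral cortex for the 32 genes, with points for the limma estimate and bars for its 95% interval. Estimates lie between -0.26 and 0.33, and the bar leaves out zero for Lss in caudal cortex and for Pmvk, Acly and Scap in rostral cortex.

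Across the 17 sterol synthesis genes tested, the median KO difference was 0.04 for caudal pieces, -0.09 for rostral pieces and 0.01 for their average. Over all genes these medians were -0.0021, -0.02 and -0.01. In the averaged comparison 9 were higher and 8 lower. The mean level over these 17 genes was 9.14, 9.17 and 9.17 on the caudal KO arrays and 9.11, 9.16 and 9.07 on the caudal WT arrays, which overlap. On the rostral arrays it was 9.02, 9.07 and 9.04 in KO and 9.10, 9.11 and 9.09 in WT, so that each KO array lay below each WT array, by little.

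The early steps lead from acetyl-CoA units to farnesyl diphosphate. Hmgcs1, which makes HMG-CoA, had the only searched upstream window with the sterol element core. It read 12.19, 12.23 and 12.36 in caudal KO and 12.10, 12.17 and 12.18 in caudal WT. In rostral cortex it read 12.00, 12.14 and 12.30 in KO and 12.18, 11.93 and 12.15 in WT. The caudal groups did not overlap, with KO higher by 0.11 ± 0.08 (SE), which did not pass (adjusted p = 0.998), and the rostral groups did. Other tested Hmgcs1 probe sets differed in caudal cortex by 0.0026, 0.0075 and 0.03, and the dimmest by 0.34. Non-overlap was found in caudal cortex for 3 of 32 members, beside 7.52% of all genes. Hmgcs1 and Lss were the 2 higher ones (background 3.84%) and Acly the 1 lower one (3.67%).

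Pmvk, the phosphomevalonate kinase, read 7.95, 8.07 and 7.89 on rostral KO arrays, against 8.30, 8.18 and 8.16 in rostral WT. All KO arrays lay below all WT arrays (-0.25 ± 0.11, limma adjusted p = 0.73). In caudal cortex the groups overlapped, at 8.15, 8.25 and 8.36 in KO and 8.13, 8.33 and 8.07 in WT. Mvk, the kinase of the step before, differed by 0.10 caudally and -0.17 rostrally, and Mvd, the decarboxylase of the step after, by 0.13 and -0.19, with overlapping groups throughout. Idi1, the isomerase that supplies the starter unit, differed by 0.01 caudally and -0.10 rostrally, and on its second probe set by 0.10 and 0.40.

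In the middle of the pathway, Sqle, the squalene epoxidase, read 10.23, 10.15 and 10.08 on rostral KO arrays, against 10.25, 10.36 and 10.32 in rostral WT. KO lay below WT without overlap (-0.16 ± 0.07, limma adjusted p = 0.75). The caudal groups overlapped, at 10.38, 10.32 and 10.26 in KO and 10.37, 10.42 and 10.32 in WT. Lss, the cyclase that forms lanosterol, went the other way and in caudal cortex, with 8.15, 8.20 and 8.23 in KO against 7.91, 7.94 and 8.06 in WT. This was the only member with an unadjusted p under 0.05 there (0.23 ± 0.10, limma adjusted p = 0.998). In rostral cortex Lss read 8.04, 8.04 and 8.03 in KO and 8.01, 8.09 and 7.91 in WT, which overlap. The 2 other Lss probe sets differed by -0.01 and 0.02 in caudal cortex.

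The late steps trim and rearrange lanosterol into cholesterol. Cyp51, the lanosterol demethylase, read 9.14, 9.16 and 9.12 on rostral KO arrays, against 9.07, 8.98 and 8.83 in rostral WT, with KO higher and no overlap (0.18 ± 0.10, limma adjusted p = 0.77). In caudal cortex its difference was -0.09. Ebp, the sterol isomerase, read 7.82, 7.63 and 7.71 on rostral KO arrays, against 8.02, 7.89 and 7.91 in rostral WT, with KO lower and no overlap (-0.22 ± 0.13, adjusted p = 0.775). Nsdhl, which acts in sterol demethylation, was 0.15 higher in rostral KO without overlap (adjusted p = 0.77). Ebp and Nsdhl lie on the X chromosome, and without animals 6 and 12 these rostral differences were -0.24 and 0.19. Hsd17b7, a ketoreductase of the same stage, had the largest caudal difference of all members, 0.33 ± 0.18, on 8.14, 8.23 and 8.60 in KO and 7.89, 7.81 and 8.29 in WT. The groups overlapped, and the other 3 Hsd17b7 probe sets differed by 0.04, 0.12 and 0.30. The one used is of a type whose probes may cross-hybridise. Without caudal KO 13 the difference was 0.19. Dhcr7, the last reductase, differed by 0.08 caudally and -0.06 rostrally. Msmo1, the oxidase of the demethylation complex, differed by -0.01 and 0.05, Sc5d, a sterol desaturase, by -0.17 and -0.11, and Tm7sf2, a sterol reductase, by 0.04 and 0.11.

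In rostral cortex non-overlap was found for 8 of 32 members, 2 higher and 6 lower in KO, beside 13% of all genes (5.46% higher and 7.5% lower). Besides Pmvk, Sqle, Ebp, Cyp51 and Nsdhl these were Fdps (-0.13), Acly and Scap. The mean level of 5 meningeal markers reached 8.40 on a rostral KO array and at most 5.81 in rostral WT, and its part in these differences was not tested. Without overlap in both regions and in the same direction there was 1 member, Acly, which was lower, beside 1.18% of all genes (0.501% higher and 0.679% lower).

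Among the 9 fatty acid synthesis genes the averaged KO difference was below zero in 8 and above zero in 1, with a median of -0.08, beside 46.9% of all genes above zero and a median of -0.01. These signs are those of the brightest probe set. For Acly, Elovl5, Elovl6, Fads1 and Fads2 another tested probe set lay above zero, and for Scd1 and Scd2 the others lay below. In caudal cortex 8 of 9 lay below zero (median -0.04), and in rostral cortex 7 of 9 (median -0.15). None passed. The mean level over the 9 genes was 9.69, 9.66 and 9.88 in caudal KO and 9.84, 9.76 and 9.79 in caudal WT. It was 9.72, 9.68 and 9.85 in rostral KO and 9.78, 9.92 and 9.92 in rostral WT, and KO and WT overlapped in both regions. The arrays of KO animals 13 and 15 were the highest of their groups.

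Acly, the ATP citrate lyase that supplies acetyl-CoA to both pathways, had the smallest averaged p of all members. It read 11.24, 11.19 and 11.22 in caudal KO against 11.49, 11.35 and 11.26 in caudal WT. In rostral cortex it read 11.35, 11.27 and 11.40 in KO against 11.42, 11.53 and 11.56 in WT. Each KO array lay below each WT array of its region, with gaps that were small at the nearest arrays of both regions. The averaged difference was -0.15 ± 0.05 (limma adjusted p = 0.49), a level 0.898 times that of WT with a 95% interval from 0.833 to 0.969. It did not pass, and its adjusted p ran from 0.255 to 0.96 over 24 alternatives. With the mean of its probe sets the difference was -0.06. Of its 3 other tested probe sets, 1 differed by -0.22, and the others by 0.02 and 0.10.

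Among the enzymes that build the chain, Fasn, the fatty acid synthase, had a within-group SD of 0.31, the highest of the 32 genes. It read 9.84, 9.76 and 10.19 in caudal KO, 10.13, 9.61 and 10.08 in caudal WT, 9.66, 9.58 and 10.21 in rostral KO and 9.63, 9.95 and 10.32 in rostral WT. The groups overlapped throughout, and the averaged KO difference was -0.08 ± 0.14. In each group the array of animals 13 to 16 exceeded the mean of the other arrays of the group, by 0.39 in caudal KO, 0.21 in caudal WT, 0.59 in rostral KO and 0.54 in rostral WT. Acaca, the acetyl-CoA carboxylase that feeds Fasn, had a within-group SD of 0.21 and differed by 0.17 caudally and -0.23 rostrally. It read 8.29, 8.59 and 8.78 in caudal KO and 8.47, 8.09 and 8.60 in caudal WT. On the rostral arrays it read 8.44, 8.52 and 8.45 in KO and 8.47, 8.74 and 8.89 in WT, with overlap in both regions.

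No elongase or desaturase passed between KO and WT. Elovl6, which lengthens palmitate, and Elovl5, which lengthens polyunsaturated chains, had averaged differences of -0.08 and -0.14. The Elovl5 value is from a probe set of a type whose probes may cross-hybridise, and the other Elovl5 probe set gave 0.02. Fads1 and Fads2, the polyunsaturated fatty acid desaturases, had averaged differences of -0.07 and -0.10. For Fads2 the caudal difference was -0.21, on 8.95, 8.65 and 8.83 in KO and 9.10, 9.13 and 8.82 in WT, which overlap. Scd1, a desaturase of saturated chains, had -0.13.

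Scd2, the related desaturase known as the main form of the embryonic brain, had the smallest range over the 12 arrays of all members on its brightest probe set, from 12.30 to 12.50, and an averaged KO difference of 0.0062 ± 0.04. A second probe set of Scd2 ranged from 9.68 to 10.20. The third split the arrays. Caudal KO read 5.76, 9.66 and 5.79 and caudal WT 6.27, 9.76 and 9.63, while rostral KO read 5.63, 9.61 and 5.74 and rostral WT 5.85, 9.40 and 9.58. There were 6 arrays at or below 6.27, 6 at or above 9.40 and none between. Both arrays of each number pair lay on the same side in 6 of 6 pairs, with pairs 2 and 8, 6 and 12, and 14 and 16 high. The split did not follow region, since each region held 3 high arrays, nor was it complete by genotype, with 2 high arrays of 6 in KO and 4 of 6 in WT. The averaged KO difference of -1.39 on this probe set rests on that split and had an unadjusted p above the threshold. No other tested probe set of a member had such a gap of at least 2 with 2 or more arrays on each side.

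**Figure D2:**
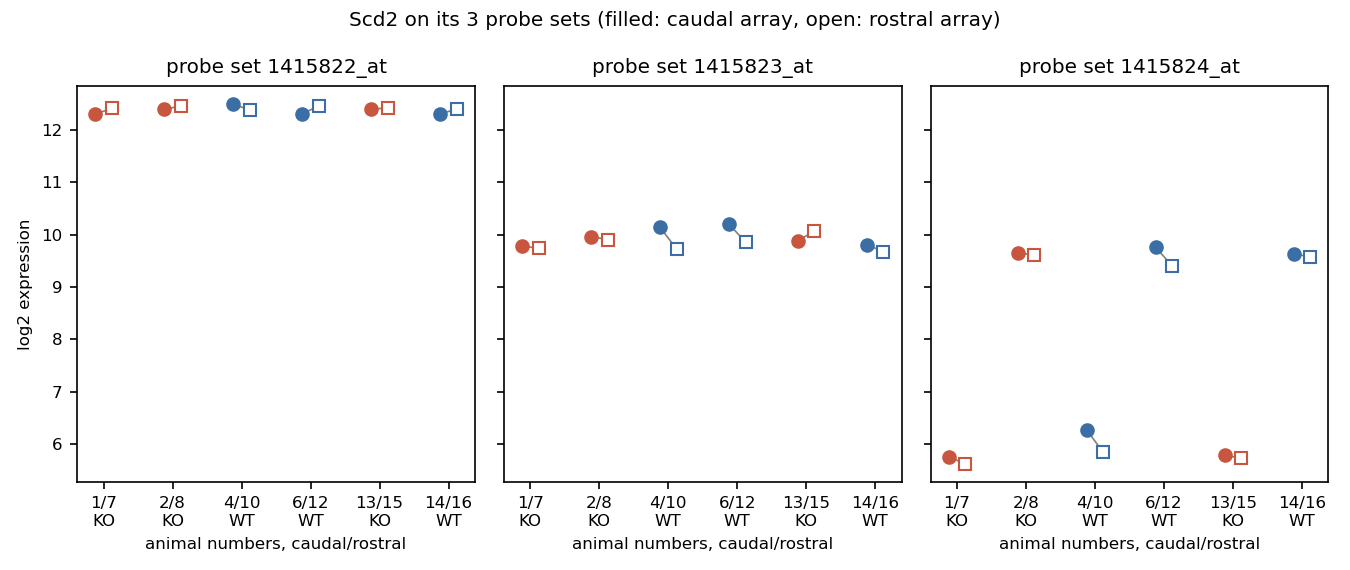
Log2 expression of Scd2 on its 3 probe sets, for the 6 pairs of animal numbers, with filled circles for caudal and open squares for rostral arrays, red for KO and blue for WT. The first probe set is flat between 12.30 and 12.50, and the third divides the pairs into 3 at or below 6.27 and 3 at or above 9.40.

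The 6 regulators had a median KO difference of 0.02 caudally, -0.08 rostrally and -0.06 on average. Srebf2, the SREBP gene that favours sterol synthesis, had the lowest averaged difference of all members, -0.23 ± 0.12 (limma adjusted p = 0.70). It read 8.16, 8.25 and 8.29 in caudal KO and 8.56, 8.54 and 8.27 in caudal WT, and 8.24, 7.99 and 8.45 in rostral KO and 8.29, 8.86 and 8.24 in rostral WT. KO and WT overlapped in both regions, and rostral WT 12 stood well above the others. Without that array the averaged difference was -0.13 and the rostral one -0.04, and with animals 1 to 12 alone the averaged one was -0.40. The second Srebf2 probe set differed by -0.32. Srebf1, which favours fatty acid synthesis, differed by -0.03.

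Scap read 8.93, 8.75 and 8.94 on rostral KO arrays, against 8.96, 9.17 and 9.28 in rostral WT, with no overlap (-0.26 ± 0.12, limma adjusted p = 0.74). Its caudal difference was 0.03. Insig2 had the opposite direction in rostral cortex, with 8.51, 8.41 and 8.14 in KO against 8.35, 7.98 and 7.89 in WT, which overlap (0.28 ± 0.13, adjusted p = 0.75). Insig1, itself a classical SREBP target, differed by 0.16 caudally and 0.03 rostrally. Stard4, a sterol carrier of the cytosol, differed by -0.11 and -0.08.

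The KO effects of the regions were compared directly. No member passed (background 0%), and none had an unadjusted p under 0.05, beside 3.04% of all genes. With number pairs as a random block none passed either, but Pmvk (limma unadjusted p = 0.0355) and Cyp51 (0.0366) fell under 0.05. The share of all genes at that level was not computed for that fit. The difference of the effects, caudal minus rostral, was above zero for 23 of 32 members with a median of 0.11, beside 53.3% of all genes and a median of 0.02. It was largest for Hsd17b7 (0.42 ± 0.25, with 0.34, 0.20 and 0.08 on its other probe sets), Acaca (0.40 ± 0.22), Pmvk (0.32 ± 0.16) and Mvd (0.32 ± 0.19). Its 95% intervals lay within 0.5 of zero for 18 of 32 genes and within 1 for all.

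Caudal cortex, from which occipital areas arise, was then compared with rostral cortex, from which frontal areas arise. Averaged over both genotypes, 1 of 32 members passed, Fdps, which was higher in caudal cortex, beside 4.46% of all genes (1.26% higher and 3.21% lower). Sterol synthesis genes were higher caudally in 13 of 17 cases with a median of 0.08, where 45.0% of all genes were higher and their median was -0.02. These signs are those of the brightest probe set. For Hmgcs1, Idi1, Fdft1, Lss, Hsd17b7 and Sc5d another tested probe set lay below zero, and for Mvk another lay above. The others of Mvd, Msmo1 and Cyp51 kept the sign. At an unadjusted p under 0.05 there were 4 sterol genes higher and 1 lower, and 7 members in all, beside 17.3% of all genes. In WT alone no member passed (0.942% of all genes did, 0.255% higher and 0.687% lower) and 2 had an unadjusted p under 0.05 (background 10.4%). In KO alone none passed (0.95%, with 0.221% higher and 0.73% lower) and 4 had such a p (13.2%). With number pairs as a random block Fdps (limma adjusted p = 0.031) and Fdft1 (0.037) passed in KO alone, beside 3.27% of all genes. In that fit more members had an unadjusted p under 0.05 in each genotype. The share of all genes at that level was not computed there. The share of all genes that passed rose too, to 2.72% in WT and 3.27% in KO.

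Fdps makes farnesyl diphosphate, the branch point towards squalene, prenylated proteins and ubiquinone. It read 10.60, 10.80 and 10.64 in caudal WT and 10.46, 10.58 and 10.54 in rostral WT. In KO it read 10.63, 10.67 and 10.73 in caudal and 10.38, 10.38 and 10.44 in rostral cortex. Each caudal array lay above each rostral array of its genotype, beside 1.39% of all genes that did so in both genotypes (4.79% in either direction), and caudal exceeded rostral in 6 of 6 number pairs, by 0.09 to 0.29. The difference was 0.21 ± 0.05 (limma adjusted p = 0.034), a level 1.16 times that of rostral cortex (95% interval 1.07 to 1.25), with 0.15 in WT and 0.27 in KO. It rests on 1 tested probe set. The direction was the same under all 24 alternatives with values from 0.18 to 0.23, but 12 of these did not pass. They were the fit without an intensity trend (adjusted p = 0.083), without animals 6 and 12 (0.084), with animals 1 to 12 alone (0.11), and 9 of the 12 fits that left out 1 array, namely those lacking animal 1 (0.057), 2 (0.0745) or 13 (0.074) of the caudal KO group, 6 (0.073) or 14 (0.051) of caudal WT, 7 (0.078) or 8 (0.092) of rostral KO, and 10 (0.090) or 16 (0.055) of rostral WT. With number pairs as a random block the adjusted p was 0.0084.

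Fdft1, the squalene synthase and the first step given over to sterols, differed by a like amount on its brightest probe set, 0.21 ± 0.06 (limma adjusted p = 0.065). It read 11.41, 11.36 and 11.55 in caudal KO against 11.22, 11.14 and 10.99 in rostral KO, with no overlap, and 11.19, 11.36 and 11.38 in caudal WT against 11.19, 11.11 and 11.31 in rostral WT, with overlap. The other tested probe set of Fdft1 did not show it, with -0.00077 ± 0.06, and the brightest one is of a type whose probes may cross-hybridise. With number pairs as a random block Fdft1 passed (adjusted p = 0.026), where 8.03% of all genes did.

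**Figure D3:**
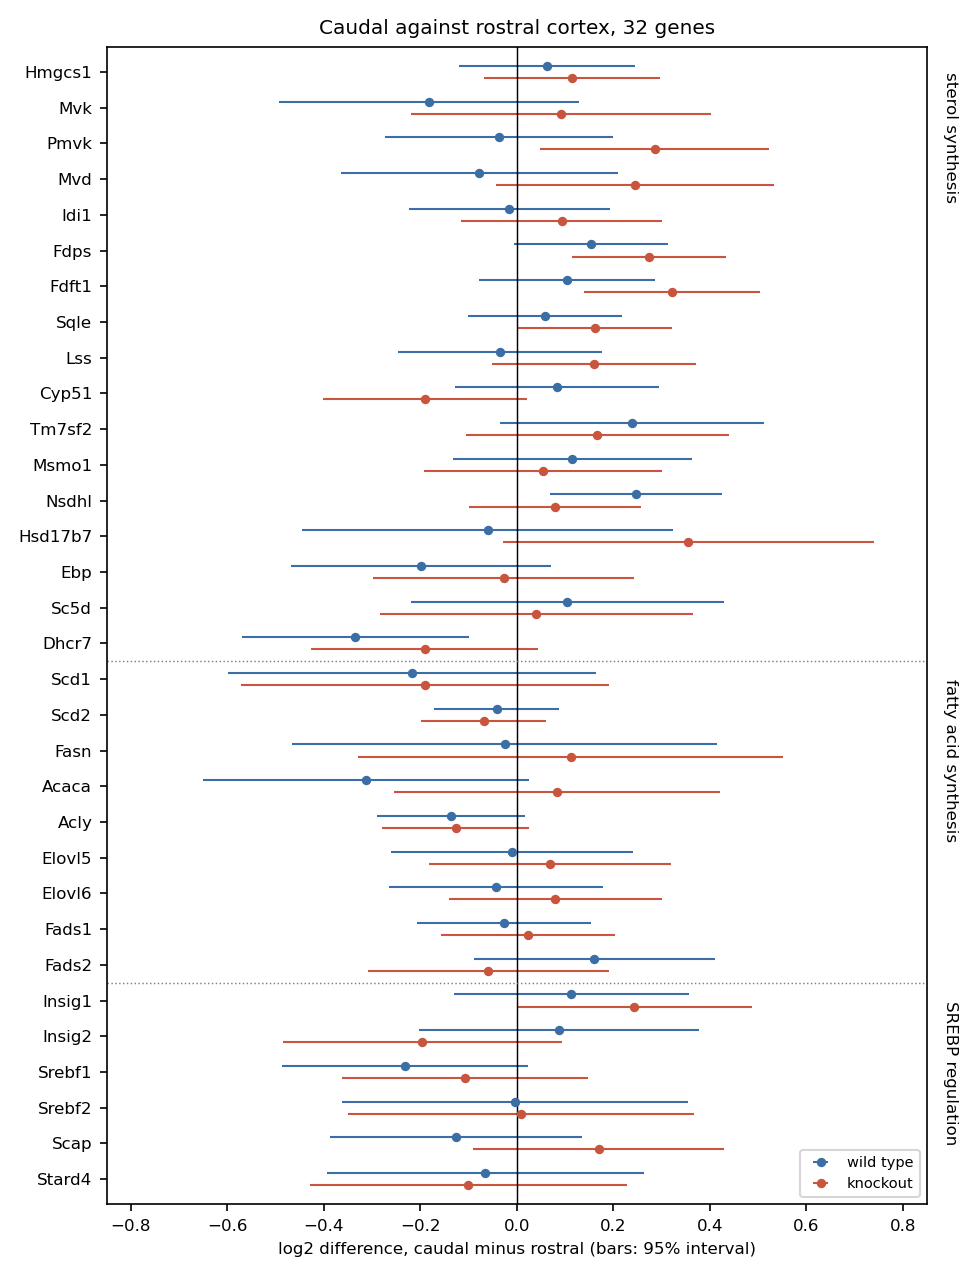
Difference between caudal and rostral cortex (log2) in WT and in KO for the 32 genes, with points for the limma estimate and bars for its 95% interval. Fdps lies to the right of zero in both genotypes (0.15 and 0.27) and Dhcr7 to the left (-0.335 and -0.19).

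Dhcr7, whose product completes cholesterol, went the other way. It read 7.83, 7.97 and 7.78 in caudal WT against 8.10, 8.34 and 8.14 in rostral WT, and 7.93, 8.01 and 7.89 in caudal KO against 8.04, 8.15 and 8.22 in rostral KO. Each caudal array lay below each rostral array in both genotypes (background 3.4% lower), and in 6 of 6 number pairs. The difference of -0.26 ± 0.08 did not pass (limma adjusted p = 0.075). It did when number pairs were a random block (limma adjusted p = 0.026), beside 8.03% of all genes. With animals 13 to 16 as an additive block it also passed (limma adjusted p = 0.046), and the share of all genes there is not given here. Nsdhl read 9.58, 9.66 and 9.53 in caudal WT against 9.30, 9.41 and 9.32 in rostral WT, with no overlap (0.25 ± 0.08, adjusted p = 0.24). In KO the Nsdhl groups overlapped (0.08). Without animals 6 and 12 its WT difference was 0.24.

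Caudal values of Tm7sf2 and Insig1 were higher on average by 0.20 ± 0.09 and 0.18 ± 0.08, which did not pass. Insig1 read 9.84, 10.13 and 9.92 in caudal KO against 9.74, 9.92 and 9.51 in rostral KO, and 9.72, 9.90 and 9.81 in caudal WT against 9.74, 9.76 and 9.59 in rostral WT, with overlap in both genotypes. Within KO, 11 of 32 members did not overlap between regions (background 20.9%). Pmvk, Fdps, Fdft1, Sqle, Lss, Hsd17b7 and Scap were the 7 higher ones (8.78%), and Cyp51, Dhcr7, Scd2 and Acly the 4 lower ones (12.1%). Within WT, 5 of 32 did not overlap (13.9%), with Fdps and Nsdhl higher (4.96%) and Ebp, Dhcr7 and Srebf1 lower (8.99%). All 6 number pairs had the same direction for 3 of 32 members, Fdps, Dhcr7 and Srebf1, beside 13.8% of all genes.

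**Figure D4:**
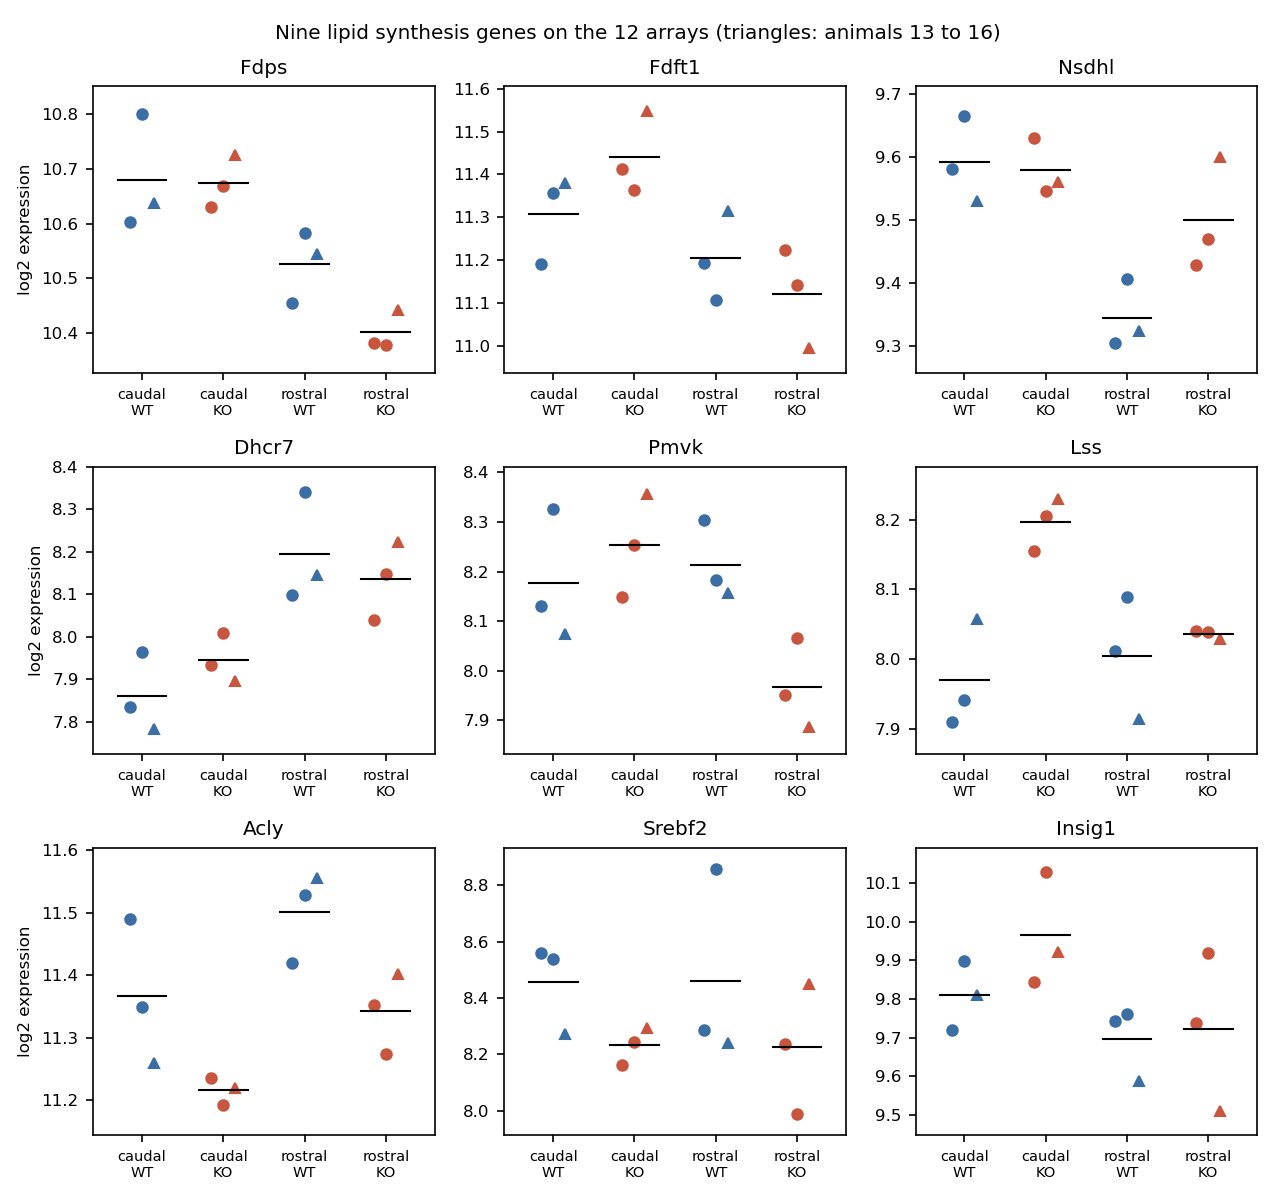
Log2 expression of 9 members on each array by group, with blue for WT, red for KO, triangles for animals 13 to 16 and bars for group means of 3 arrays. Fdps is higher and Dhcr7 lower in caudal than in rostral cortex in both genotypes, and Acly is lower in KO in both regions.

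Fatty acid synthesis genes had a regional median of -0.0016, with 4 higher and 5 lower. Acly differed by -0.13 ± 0.05 (limma adjusted p = 0.19), Scd1 differed by -0.20 and Acaca by -0.11, and Fasn by 0.04. On its other tested probe sets Acly differed by -0.02, -0.05 and 0.12. Elovl5 differed by 0.03 on its brightest probe set and by -0.16 ± 0.05 on the other, which did not pass. Among the regulators, Srebf1 differed by -0.17 ± 0.08 (adjusted p = 0.32) and was lower in caudal cortex in 6 of 6 number pairs, at 9.57, 9.36 and 9.57 in caudal WT against 9.62, 9.75 and 9.83 in rostral WT. In KO it read 9.55, 9.36 and 9.69 caudally and 9.57, 9.50 and 9.86 rostrally, with overlap. Srebf2 differed by 0.0024 on its brightest probe set and by 0.26 ± 0.12 on the other, which did not pass. Scap differed by 0.02.

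Some markers of cell types differed with region. Of 6 tested ganglionic eminence markers, 3 were lower in caudal cortex past the threshold (Dlx1, Dlx2 and Dlx5) and the median difference was -0.90. Their mean level ran from 6.49 to 7.42 over the caudal arrays and from 7.61 to 8.80 over the rostral ones. Of 7 dorsal cortex markers Pax6 and Tbr1 were lower, while 3 of the 7 lay above zero (median -0.06). Of 8 young neuron markers Nefm was higher, and 5 of the 8 lay above zero (median 0.08). Of 3 choroid plexus markers Otx2 was lower, while Folr1 (0.16) and Clic6 (0.35) did not pass. Of 5 oligodendrocyte lineage markers Olig2 was lower (median -0.46), while Pdgfra lay above zero (0.55) without passing. No radial glia marker passed (median 0.02, 8 tested), nor did a vascular one (0.01, 8 tested). None passed among 5 microglial markers, all below zero (median -0.28), 5 meningeal ones, all below zero (-0.13), and 4 blood ones (-0.09). The part of these cell types in the Fdps and Dhcr7 differences was not tested.

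A further 40 genes of lipid transport, lipoprotein uptake, fatty acid activation and isoprenoid use were listed, of which 33 were tested. None passed in any of the 7 comparisons. Their median was -0.02 for KO averaged over regions and -0.0081 for caudal against rostral cortex. Lpl, the lipoprotein lipase, had the largest regional difference of these (0.74 ± 0.25, limma adjusted p = 0.12), with 1.31 in KO and 0.18 in WT. Mbtps1, the protease that makes the first cut in SREBP, differed by -0.18 ± 0.06 (adjusted p = 0.10). Stard3, an endosomal sterol carrier, had a difference of -0.40 ± 0.12 between caudal KO and caudal WT (limma adjusted p = 0.93).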

How the data were processed

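RNA from 12 pieces of embryonic cortex (400 ng each) was amplified, labelled with biotin and hybridised to 1-colour oligonucleotide arrays, per the labels. The authors deposited 1 log2 value for each of the 45101 probe sets on each array, from -3.81 to 14.02 with nearly equal quartiles; the methods of background correction, normalisation and summarisation are not given in the sources used here. The values were used as deposited. Scale and normalisation were read from the values.

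Probe sets were named from the platform annotation: 34958 named 1 gene, 932 named several and were not used, and 9211 had no name in the table used. A probe set was tested when it exceeded 5.21, the median of the table, on at least 3 arrays, and the tested probe set of highest mean stood for its gene (11785 genes). The same fit was run on all 21288 tested probe sets. All arrays entered 1 fit with a mean per group in limma 3.58.1 (R 4.3.3), with empirical Bayes moderation and a trend on intensity (residual degrees of freedom 8, prior 5.37), in 7 comparisons. P-values are two-sided and Benjamini-Hochberg adjusted over all genes, with a threshold of 0.05, and the script was tested on simulated data. Each label names an animal, but litters are not given, and 3 arrays per group limit the precision.

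The members, lists and tests were chosen with earlier results of these data known. By rule, values on every array were given for members past the threshold and for up to 3 members of smallest p in each list and comparison; other members shown so were picked after their values were seen. Alternatives were other normalisations, filters, ways to combine probe sets and moderation, only the groups compared, blocks by animals 13 to 16 or by number pairs, leaving out animals 6 and 12, and leaving out each array. The fit on animals 1 to 12 alone was added after seeing the data, as were the search for split probe sets and the choice of promoter windows.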

Additional observations from a re-analysis of the deposited data

How the results depend on the processing

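No paired analysis by shared replicate number was possible because no animal number occurs in 2 groups. In KO against WT, caudal, rostral or averaged, and in the difference of the KO effects, no member passed under any alternative run. Over all genes the counts ran from 0 to 4 in caudal cortex, 0 to 4 in rostral cortex, 1 to 20 averaged (4 in the reported fit) and 0 to 1 for the difference. For caudal against rostral cortex they ran from 22 to 320 in WT (111 reported), 20 to 385 in KO (112) and 334 to 946 averaged (526). In KO, 1 member was called higher with animals 13 to 16 as a block (Fdft1) and 2 when number pairs were a random block (Fdft1 and Fdps), against 0. Averaged over genotypes, where 1 was called higher and 0 lower, both block fits gave 2 higher (Fdps and Fdft1) and 1 lower (Dhcr7), while 0 were called without an intensity trend, without animals 6 and 12 and with animals 1 to 12 alone, and leaving out 1 array gave 0 to 2. Without caudal WT 4 or rostral WT 16 Fdft1 passed. With number pairs as a random block 3.27% of all genes passed in KO and 8.03% averaged over genotypes. The shares with animals 13 to 16 as a block are not given here. The consensus correlation of the number pairs was 0.26. Probe sets of a gene had 1 sign in 9 of 20 genes with several for the averaged KO difference and in 6 of 20 for the regional one. Whether partners come from 1 embryo, and what sets animals 13 to 16 apart, was not tested.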

Other observations

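Animals 13 to 16, 1 in each group, were compared with animals 1 to 12 within groups, as a comparison chosen after the data were seen. The labels give only the number. Of the 32 genes 1 passed, Fasn (0.43 ± 0.10, limma adjusted p = 0.016, higher in 4 of 4 groups), beside 10.3% of all genes. Elovl6 (0.17 ± 0.06, adjusted p = 0.071), Srebf1 (0.20 ± 0.07, 0.069) and Hmgcs1 (0.13 ± 0.05, 0.11) were also higher in 4 of 4 groups without passing. Mvd (-0.23 ± 0.08, 0.069) and Ebp (-0.15 ± 0.08, 0.246) were lower in 4 of 4 groups. These 4 of 32 members higher and 2 lower in every group stand beside 11.9% and 22.3% of all genes.

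Of 21288 tested probe sets, 35 split the arrays by a gap of at least 2 on the log2 scale with 2 or more arrays on each side, and in 14 of them both arrays of each of the 6 number pairs lay on 1 side. The third Scd2 probe set, with a gap of 3.13, was the only one of a member. The brighter Scd2 probe sets ranged over less than 0.6 on the same arrays. The 14 include probe sets of Xist and Eif2s3y, which set animals 6 and 12 apart from the other arrays. How many more of the 14 follow sex was not counted.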
